A study of Mus musculus with 8 samples.

Results

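The guanylate-binding proteins (GBPs) described here are the products of 10 mouse genes, Gbp2, Gbp3, Gbp4, Gbp5, Gbp6, Gbp7, Gbp8, Gbp9, Gbp10 and Gbp11, out of 55487 genes counted by RNA sequencing in mouse liver. The genes were matched by symbol, and all 10 passed the filter on low counts that left 13400 genes for testing. They were chosen from the genotype difference and the spread between mice seen in these same livers, so their genotype differences are given as a description. The livers came from 4 Control mice (numbers 154, 159, 181 and 193), which carried the floxed Mc1r fl/fl allele without Cre, and from 4 Mc1r LKO mice (141, 156, 157 and 182), in which Mc1r fl/fl was combined with the Alb Cre/+ transgene. All were male, eight-week-old when the diet began, and ate a cholesterol-rich Western diet for 12 weeks. The albumin promoter drives Cre in hepatocytes, so the other liver cells keep their Mc1r alleles, and the RNA was of whole liver. MC1R is the melanocortin 1 receptor. Mc1r itself had 0 counts in all 8 mice, so its deletion could not be checked in these libraries.

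GBPs are large GTPases of the dynamin superfamily that are made in small amounts in resting cells and in large amounts after interferon-gamma. Interferon-gamma binds a receptor that signals through the kinases JAK1 and JAK2, and promoters of the genes it induces can hold gamma-activated sites (GAS). The factor IRF1 binds another element, the interferon-stimulated response element (ISRE). The proteins coat vacuoles that hold intracellular microbes and promote inflammasome activation, and in the liver they can be made by hepatocytes and by resident immune cells alike.

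Counts per mouse totalled between 10773151, in control mouse 159, and 24763375. Levels are given as CPM, the count per 1000000 counts of a library, scaled by TMM normalization, and a count of 0, as for Mc1r, allows up to 0.121 to 0.278 CPM depending on the library. The 10 hepatocyte markers listed were measured in every mouse and summed to between 74981 and 105706 CPM. Control mouse 159 stood apart from the other 7 mice for the Gbp genes, so the genotype differences are given with and without it. Nothing in the sample descriptions ties mice to cages, litters or library batches, so no batch could be examined. In whole liver, fewer cells of a type and less RNA per cell cannot be told apart.

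The Gbp genes lie in a pair of clusters on the mouse genome (build GRCm38). The chromosome 3 cluster runs over 144 kb on the plus strand, from 142493978 to 142638008, and holds Gbp5, Gbp7, Gbp3, Gbp2b and Gbp2 in that order. Gbp2b, which RefSeq also lists under the name Gbp1, is the family gene in that cluster that was not among the 10. The chromosome 5 cluster runs over 332 kb on the minus strand, from 105014150 to 105346472, and holds Gbp8, Gbp9, Gbp4, Gbp10, Gbp6 and Gbp11. No other gene that passed the filter lies inside either cluster. Gbp8, Gbp9 and Gbp4 overlap one another there and share 60 to 61 exonic bases at their common first exon. GENCODE annotates the main Gbp11 transcript as a polymorphic pseudogene, a gene whose reading frame is intact in some strains only.

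Promoter windows from RefSeq (build GRCm38.p6) were at hand for 4 of the 10 members, all on chromosome 3, and they are shown because these genes were high together in the same mouse. Each window covers the 250 bases before a RefSeq start site and is printed 5′ to 3′ on the plus strand. Printing goes no further than 15 bases into the first annotated exon of the gene that the window meets. Capitals mark matches to the GAS motif TTCNNNGAA or to the ISRE motif TTTCNNTTTC, which was also searched as its reverse complement GAAANNGAAA. The GAS motif is its own reverse complement.
Gbp5, chr3:142496684-142496914: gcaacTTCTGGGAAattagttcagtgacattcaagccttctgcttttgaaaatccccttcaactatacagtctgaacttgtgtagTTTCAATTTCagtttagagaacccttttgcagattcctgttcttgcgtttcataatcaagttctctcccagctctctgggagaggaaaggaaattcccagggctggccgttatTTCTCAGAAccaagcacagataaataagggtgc
Gbp7, chr3:142530086-142530335: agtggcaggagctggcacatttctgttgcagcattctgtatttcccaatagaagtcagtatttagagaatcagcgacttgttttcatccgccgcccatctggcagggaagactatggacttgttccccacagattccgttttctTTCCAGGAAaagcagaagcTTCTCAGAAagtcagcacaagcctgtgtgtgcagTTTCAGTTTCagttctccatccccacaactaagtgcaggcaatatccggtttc
Gbp3, chr3:142559794-142560040: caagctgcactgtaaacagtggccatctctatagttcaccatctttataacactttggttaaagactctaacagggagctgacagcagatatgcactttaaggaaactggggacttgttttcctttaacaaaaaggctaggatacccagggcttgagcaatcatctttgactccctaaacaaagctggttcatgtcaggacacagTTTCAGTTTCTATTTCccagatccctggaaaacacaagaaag
Gbp2, chr3:142620413-142620616: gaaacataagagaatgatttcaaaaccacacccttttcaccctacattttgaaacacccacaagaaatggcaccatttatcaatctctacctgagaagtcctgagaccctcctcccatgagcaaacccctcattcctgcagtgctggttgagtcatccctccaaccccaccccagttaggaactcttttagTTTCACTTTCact
Gbp5 and Gbp7 each held 2 GAS matches and 1 ISRE match. In Gbp7 the ISRE match ended 43 bases before the start site, and the GAS matches ended 78 and 97 bases before it. Gbp3 held 2 ISRE matches that overlap each other, which end 35 and 29 bases before its upstream start site, and no GAS match. Gbp2 held 1 ISRE match, 49 bases before its RefSeq start site. That match lies inside the first annotated exon of the counted Gbp2 gene, which begins at 142620602. The Gbp5 window lies inside the counted Gbp5 gene, which begins at 142493978. A second Gbp3 start site is listed by RefSeq, and its window held neither motif. Among all 32851 promoter windows of this length, 7.02% held the GAS motif and 2.98% the ISRE motif. A match describes the letters in a window and does not show that a factor binds there.

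In all 10 members control mouse 159 had the highest level of the 8 mice, while 18.1% of all tested genes were highest in that mouse. In 7 of the 10 (Gbp3, Gbp4, Gbp5, Gbp6, Gbp8, Gbp10 and Gbp11) it was at least 2-fold above every other mouse, against 0.836% of all tested genes. The ratio of mouse 159 to the mean of the other 3 Control mice ran from 2.11-fold in Gbp9 to 11.9-fold in Gbp11, with a median log2 ratio of 2.0 over the 10 members and 0.0071 over all tested genes. With all libraries thinned to the lowest total count, that of mouse 159, the median over the members was 1.88. On chromosome 5 the median log2 ratio of the 6 members was 2.27, and on chromosome 3 that of the 4 members was 1.52. The height of mouse 159 was among the values from which the members were chosen.

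**Figure D1:**
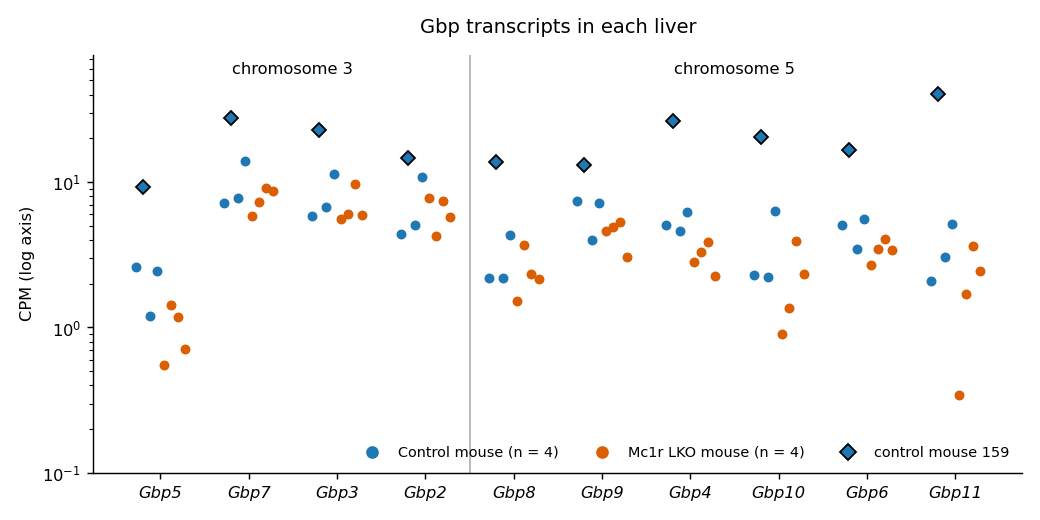
CPM (log axis) of the 10 Gbp genes in each of the 8 livers, in chromosome order, with Control mice in blue, Mc1r LKO mice in orange and control mouse 159 as a diamond. The diamond is the highest point in all 10 genes and reaches 40.6 CPM in Gbp11.

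Gbp7, which has been linked to assembly of the phagocyte NADPH oxidase, was at 7.23, 27.6, 7.82 and 13.9 CPM in Control mice 154, 159, 181 and 193. In Mc1r LKO mice 141, 156, 157 and 182 it was at 5.81, 7.28, 9.13 and 8.64 CPM. The groups overlapped, since mice 154 and 181 fell among the Mc1r LKO mice while mice 159 and 193 lay above them.

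Gbp3, a neighbour of Gbp7, was at 5.85, 23.0, 6.72 and 11.3 CPM in the Control mice, in the same order of mice. It was at 5.6, 6.04, 9.78 and 5.93 CPM in the Mc1r LKO mice. Mouse 157 stood above the other 3 Mc1r LKO mice and above Control mice 154 and 181, so the groups overlapped.

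Gbp2, a member that is anchored in membranes by a lipid tail and is needed for attack on pathogen vacuoles, was at 4.41, 14.6, 5.05 and 10.8 CPM in the Control mice. It was at 7.81, 4.29, 7.43 and 5.72 CPM in the Mc1r LKO mice. Gbp2 had the smallest excess of mouse 159 over the next highest mouse, 1.35-fold, and here mouse 141 was the highest of the Mc1r LKO mice.

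Gbp5, which also carries a lipid tail and has been linked to the NLRP3 inflammasome, was the scarcest member, at 2.61, 9.30, 1.20 and 2.45 CPM in the Control mice. It was at 0.553, 1.43, 1.17 and 0.715 CPM in the Mc1r LKO mice, and its raw counts there were between 8 and 29. Only mouse 181 among the Control mice fell within the range of the Mc1r LKO mice.

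Gbp4 was at 5.05, 26.2, 4.59 and 6.24 CPM in the Control mice. It was at 2.83, 3.31, 3.88 and 2.25 CPM in the Mc1r LKO mice. Every Mc1r LKO mouse was below every Control mouse in Gbp4, the only one of the 10 members of which this held, and over all tested genes it held for 1.54%. Without mouse 159 it again held for Gbp4 alone among the members, and for 3.04% of all tested genes.

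Gbp8 was at 2.18, 13.7, 2.19 and 4.32 CPM in the Control mice. It was at 1.52, 3.70, 2.34 and 2.15 CPM in the Mc1r LKO mice, so Control mice 154 and 181 sat among them. Gbp9, a member that is recruited to the vacuoles of the parasite Toxoplasma, was at 7.39, 13.1, 4.01 and 7.22 CPM in the Control mice. It was at 4.63, 4.94, 5.33 and 3.07 CPM in the Mc1r LKO mice, with Control mouse 181 inside their range.

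Gbp10 was at 2.29, 20.5, 2.24 and 6.36 CPM in the Control mice. It was at 0.899, 1.36, 3.92 and 2.35 CPM in the Mc1r LKO mice, and mice 157 and 182 lay above Control mice 154 and 181. Gbp6, which together with Gbp10 has been tied to defence against intracellular bacteria, was at 5.05, 16.7, 3.44 and 5.54 CPM in the Control mice. It was at 2.7, 3.44, 4.08 and 3.42 CPM in the Mc1r LKO mice, which varied least for this gene.

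Gbp11 showed the widest range of the family. It was at 2.07, 40.6, 3.07 and 5.14 CPM in the Control mice and at 0.346, 1.69, 3.64 and 2.45 CPM in the Mc1r LKO mice. Its raw counts were 437 in mouse 159 and 5 in mouse 141, although the library of mouse 159 was the smallest. The groups overlapped, since mice 157 and 182 lay above Control mouse 154. Gbp2b, the family gene outside the 10, reached 33.8 CPM in mouse 159 and 0.899 to 6.07 CPM in the other 7 mice.

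The mice kept a similar order across the family, with exceptions. Control mouse 193 was the next highest after mouse 159 in 8 of the 10 members, and it lay above all 4 Mc1r LKO mice in all 10. It lay above both Control mice 154 and 181 in 8 of the 10, Gbp5 and Gbp9 being the exceptions. Mc1r LKO mouse 141 was the lowest of the 8 mice in 7 members, and mouse 157 was above the mean of the other 3 Mc1r LKO mice in 9. The summed level of the 10 members, in CPM per kilobase of exon (RPKM), was 10.2, 52.4, 9.96 and 18.6 in Control mice 154, 159, 181 and 193. It was 8.47, 9.10, 13.0 and 9.35 in Mc1r LKO mice 141, 156, 157 and 182. Control mice 154 and 181 therefore sat within the range of the Mc1r LKO mice, and mice 193 and 159 above it.

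The spread between mice was among the values from which the members were chosen, so it is given as a description. The standard deviation of log2 CPM over the 4 Mc1r LKO mice had a median of 0.38 over the members and 0.22 over all tested genes. It ran from 0.24 in Gbp6 to 1.33 in Gbp11. Over Control mice 154, 181 and 193 the medians were 0.53 and 0.19.

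Compared per kilobase of exon, Gbp2 was the highest member, with a median over the 8 mice of 2.61 RPKM (range 1.70 to 5.80), followed by Gbp3 at 1.95 RPKM (1.72 to 7.03). Gbp7 (median 1.47 RPKM), Gbp11 (1.03) and Gbp9 (0.993) came next in order of mean log2 RPKM. Gbp8 (0.658 RPKM), Gbp10 (0.599), Gbp6 (0.632) and Gbp4 (0.565) were close together. Gbp5 was the lowest, with a median of 0.198 RPKM (0.0833 to 1.40). The 3 highest members thus all lay on chromosome 3, as did the lowest.

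Neighbours in this order were compared within each mouse by the log2 ratio of their RPKM, with an exact two-sided sign-flip permutation test over the 8 mice, for which the smallest p is 0.0078. Of the 9 neighbouring pairs, 2 differed at an adjusted p under 0.05. Gbp3 was above Gbp7 in 8 of 8 mice, by a mean log2 ratio of 0.55 ± 0.19 (SD, n = 8, exact permutation p = 0.0078, Benjamini-Hochberg adjusted p = 0.035). This ratio was 0.38 with only the unshared exonic bases as the length. With CPM in place of RPKM the order of Gbp3 and Gbp7 was reversed, so it depends on the correction for length. Gbp4 was above Gbp5 in 8 of 8 mice, by 1.33 ± 0.39 (SD, n = 8, exact permutation p = 0.0078, adjusted p = 0.035). Gbp2 and Gbp3 did not differ beyond their spread (mean log2 ratio 0.13 ± 0.35, exact permutation p = 0.41, Gbp2 higher in 3 of 8 mice). The pairs between Gbp7 and Gbp4 in the order did not pass either, and the pair of Gbp11 and Gbp9 had the widest spread, 0.10 ± 1.44.

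**Figure D2:**
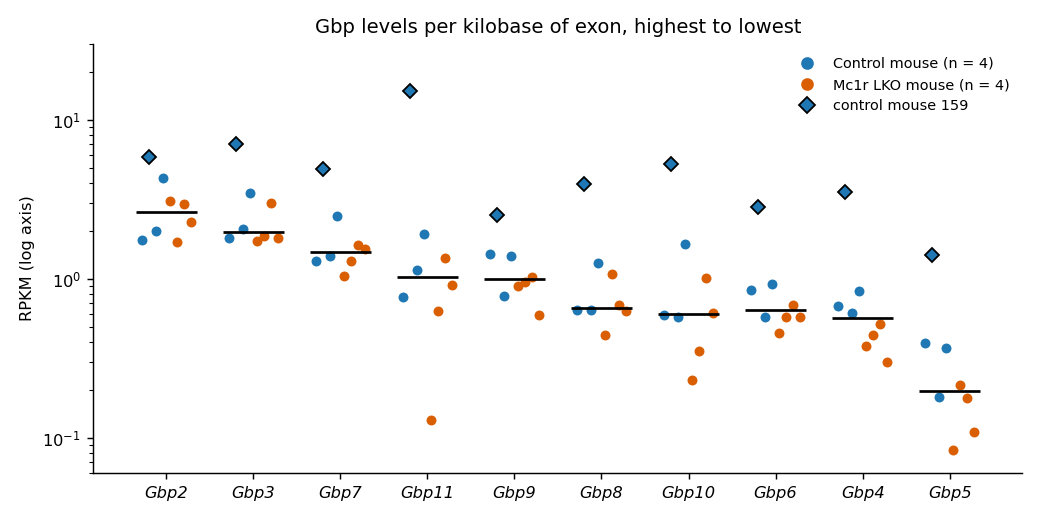
RPKM (log axis) of each Gbp gene in the 8 livers, ordered by mean log2 RPKM from highest to lowest, with a line at the median of the 8 mice. Gbp5 has the lowest median, 0.198 RPKM, and Gbp11 spans the widest range, from 0.128 to 15.1 RPKM.

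The place of Gbp10 and Gbp6 in this order depends on bases they share. A predicted read-through gene, Gm43302, overlaps both on the same strand and takes in 46.3% of the exonic bases of Gbp10 and 29.0% of those of Gbp6, and it was counted at 0 in all mice. Of the distinct 100-base windows of the Gbp10 transcripts, 73.5% also occur in another gene, and 60.1% occur in Gbp6 itself. For Gbp6 the shares were 64.5% and, in Gbp10, 36.3%. In the other 8 members at most 10% of the windows were shared, the most in Gbp7, with the predicted gene Gm43802. With windows of 50 bases the shares were larger, at 19.2% in Gbp11, 18.1% in Gbp8 and 12.7% in Gbp7. Reads from shared stretches can be lost to the counting or be assigned to the other gene. The levels of Gbp10 and Gbp6 in particular are therefore uncertain. With only the unshared exonic bases as the length, a calculation added after the values were seen, Gbp10 moved from rank 7 to rank 4 (median 1.11 RPKM).

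The makeup of the family differed between mice. Members on chromosome 3 gave 36.6% of the summed RPKM in control mouse 159, between 51.4% and 57.1% in the other 3 Control mice and between 55.7% and 70.1% in the Mc1r LKO mice. Gbp11 alone gave 28.8% of the sum in mouse 159, between 7.57% and 11.5% in the other Control mice and 1.52% in Mc1r LKO mouse 141. Gbp2 gave 36.7% in mouse 141 and 11.1% in mouse 159. Mouse 159 was therefore set apart in the mixture of paralogs as well as in their sum.

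**Figure D3:**
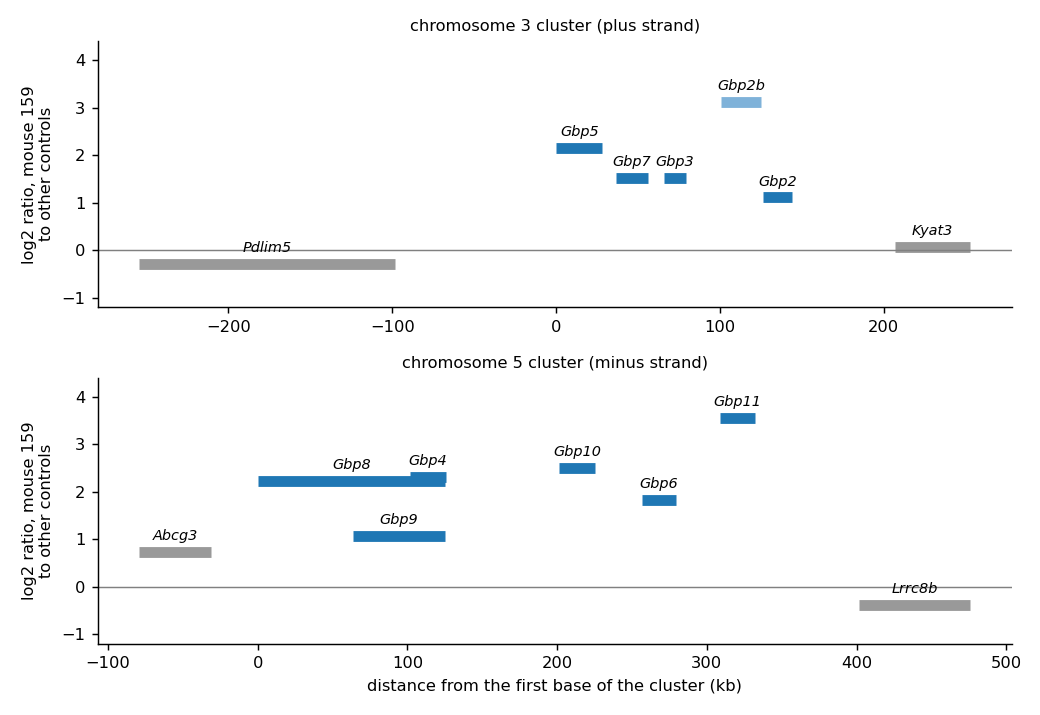
Log2 ratio of the CPM of control mouse 159 to the mean of the other 3 Control mice for each gene of the chromosome 3 and chromosome 5 clusters and for the nearest tested genes outside (grey), drawn at the genes' extent in kb from the first base of the cluster. Every Gbp gene lies above 1, whereas the flanking genes lie between -0.39 and 0.74.

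Of the 4 nearest tested genes outside the clusters, mouse 159 was the highest of the 8 mice in Abcg3. Next to the chromosome 3 cluster, Pdlim5, 98.3 kb away, was at 38.5 CPM in mouse 159, below the 41.0 to 50.4 CPM of the other Control mice. Kyat3, on the other side, was at 95 CPM in mouse 159, within the 42.0 to 146 CPM of the other Control mice. Next to the chromosome 5 cluster, Abcg3, 31.4 kb away, was at 6.79 CPM in mouse 159, between 2.87 and 5.42 CPM in the remaining Control mice and between 1.94 and 6.24 CPM in Mc1r LKO mice. Its log2 ratio to the mean of the other Control mice was 0.74, below that of every Gbp gene. Lrrc8b was at 1.12 CPM in mouse 159 and between 1.39 and 1.56 CPM in Control mice 154, 181 and 193.

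All 10 members had a negative log2 fold change (Mc1r LKO minus Control) in edgeR's quasi-likelihood fit, as did 52.1% of all tested genes. The values ran from -0.45 ± 0.37 (standard error) in Gbp2 to -2.55 ± 0.96 in Gbp11. In between, Gbp5 was at -1.95 ± 0.61, Gbp10 at -1.80 ± 0.72 and Gbp4 at -1.74 ± 0.55. The remaining 5 members were between -0.74 and -1.16. The median was -1.15 over the 10 members and -0.01 over all tested genes. By chromosome it was -0.80 for the 4 members on chromosome 3 and -1.45 for the 6 on chromosome 5. These values chose the members, so nothing is read from their size.

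The limits used here for a changed gene were an unadjusted p under 0.05 and a log2 fold change of 0.25 or more in either direction, and they were met by 6 members, Gbp4, Gbp5, Gbp6, Gbp9, Gbp10 and Gbp11, all lower in Mc1r LKO mice. In that direction 2.66% of all tested genes met these limits, and in the higher direction 2.64% and no member. After Benjamini-Hochberg adjustment over all 13400 genes no member and no other gene passed in edgeR (0% of genes), and the adjusted p of the members lay between 0.73 and 0.87. DESeq2 called 17 genes, 0.201% of those to which it gave an adjusted p. It gave one to 2 members, Gbp3 and Gbp7, and called neither. The member just short of the p limit was Gbp7, with a log2 fold change of -0.85, and the one just past it was Gbp9, at -0.80.

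Without control mouse 159 all 10 members were still below 0 (50.5% of all tested genes), with a median of -0.45 over the members and -0.0032 over all genes. The limits were then met by Gbp4, at -0.78 ± 0.23, and by Gbp5, at -1.09 ± 0.42, while 1.84% of all genes met them in that direction. Gbp11 moved from -2.55 to -0.72 ± 0.58, Gbp10 from -1.80 to -0.73 ± 0.53 and Gbp2 from -0.45 to -0.10 ± 0.34. The remaining 5 members were then between -0.21 and -0.46, and the medians by chromosome were -0.26 on chromosome 3 and -0.59 on chromosome 5. Leaving out mouse 159 moved the value of each of the 10 members toward 0. That mouse was the highest Control mouse in all 10, so a shift in this direction follows from leaving it out.

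**Figure D4:**
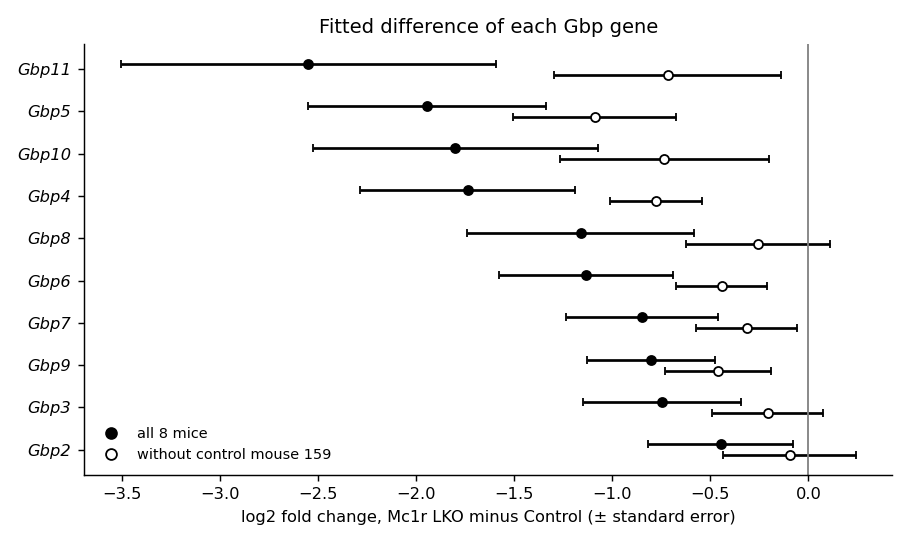
Log2 fold change, Mc1r LKO minus Control, of each Gbp gene with its standard error, from all 8 mice (filled points) and without control mouse 159 (open points). All filled and open points lie below 0, and every open point is closer to 0 than the filled point of its gene. This shift follows from leaving out the Control mouse that was highest in every gene shown.

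Genes of the interferon-gamma pathway were set beside the Gbp genes, from lists of receptor and signalling genes, of induced genes and of related GTPases. Over all tested genes 2.66% met the limits in the lower direction, 2.64% met them in the higher direction, and 18.1% were highest in mouse 159. Of 13 tested genes of interferon-gamma receptor signalling, none met the limits in either direction, and their median log2 fold change was -0.08, or -0.05 without mouse 159. In this list 7 of the 13 were highest in mouse 159, and their median log2 ratio of that mouse to the other Control mice was 0.14. Ifng, the ligand, had 3 counts over all 8 mice together. The receptor chains Ifngr1 and Ifngr2 were at log2 fold changes of -0.06 and 0.08, the kinases Jak1 and Jak2 at -0.08 and -0.15. Without mouse 159 these 4 values were 0.08, 0.07, -0.11 and -0.16. Irf1 was at 59.1 CPM in mouse 159, between 24.5 and 37.9 CPM in the other Control mice and between 26.1 and 26.7 CPM in Mc1r LKO mice. Socs3, a feedback inhibitor of cytokine receptors, was at 24.5 CPM in mouse 159 and at most 14.8 CPM elsewhere. Irf2, Irf8, Irf9, Ptpn1, Ptpn2, Ptpn11 and Pias1 lay between -0.44 and 0.32 in log2 fold change, and between -0.21 and 0.19 without mouse 159. Irf1 was at -0.48, and at -0.17 without mouse 159. Socs3 went from -0.23 to 0.83 without that mouse, a change of sign. Ptpn2, a phosphatase that dampens the pathway, was at 6.79 CPM in mouse 159, below the other 7 mice.

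Of 28 tested interferon-gamma induced genes, 24 were highest in mouse 159, against 18.1% of all tested genes. The limits were met by 4, all lower in Mc1r LKO mice, against 2.66% of all tested genes in that direction. The 4 were Ciita, the master regulator of MHC class II genes (log2 fold change -1.44 ± 0.59), the peptide transporter subunit Tap1 (-0.55 ± 0.23), Parp14 (-0.47 ± 0.17) and the death ligand Tnfsf10 (-0.65 ± 0.21). Without mouse 159 Ciita was at -0.67, Tap1 at -0.23, Parp14 at -0.31 and Tnfsf10 at -0.63. Among the most abundant of the list, Cd74, the MHC class II invariant chain, was at 572 CPM in mouse 159 and at 61.8 to 239 CPM elsewhere. Serping1, the complement C1 inhibitor, was at 877 CPM in mouse 159 and between 470 and 859 CPM elsewhere. The median log2 fold change of the list was -0.50, and -0.13 without mouse 159, when 1 gene, Tnfsf10, met the limits.

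The immunity-related GTPases, which act with the GBPs on microbial vacuoles, had a median log2 ratio of mouse 159 to the other Control mice of 1.59 over 11 tested genes, the closest of these pathway lists to the 2.0 of the Gbp genes. Irgm2 was at 121 CPM in mouse 159, whereas the others lay between 22.5 and 38.4 CPM. Iigp1 was at 540 CPM in mouse 159 and between 128 and 323 CPM elsewhere, and Irgm1 was at 118 CPM against at most 58.8 CPM. Gm4951 differed from these, at 90.6 CPM in mouse 159 and up to 97.1 CPM elsewhere. Only Tgtp2 of the 11 met the limits, at a log2 fold change of -1.36 ± 0.53, against 2.66% of all tested genes in that direction. Without mouse 159 it was at -0.83 and none met them, and the list median was -0.16 in place of -0.79. Tgtp2 has a near-identical copy, Tgtp1, so its counts are uncertain.

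Genes stimulated by type I interferon followed to a smaller extent, with a median log2 ratio of 0.43 for mouse 159 over 22 tested genes. In this list 11 were highest in that mouse, against 18.1% of all tested genes, of which 2.66% met the limits in the lower direction. Only Oas2 met the limits (log2 fold change -0.66 ± 0.26). Without mouse 159 it was at -0.52 and none met them, and the list median was -0.04 in place of -0.23. Irf7 was at 59.0 CPM in mouse 159 and at most 34.4 CPM elsewhere. The viral RNA sensors Ifih1 and Ddx58 had log2 ratios of 0.08 and -0.10. Of 23 genes for GBP partners in inflammasomes and vacuole attack, 1 met the limits, Il1b at -1.11 ± 0.49, and the autophagy receptor Sqstm1, the most abundant, was at 0.11 ± 0.11. Without mouse 159 Il1b was at -0.59 and none met the limits, Sqstm1 was at 0.10, and the list median was 0.04 in place of -0.05. Of these 23 genes 10 were highest in mouse 159, and their median log2 ratio for that mouse was 0.39. Of 12 tested genes for GBP chaperones, prenylation and related GTPases none met the limits, and their median log2 ratio for mouse 159 was -0.12. None of the genes in these lists passed the adjusted threshold in edgeR.

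**Figure D5:**
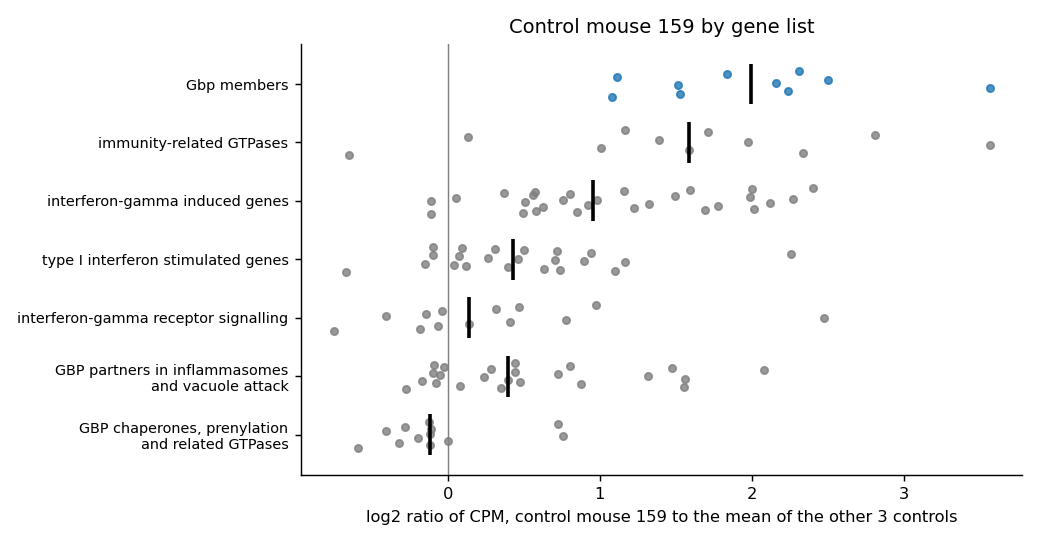
Log2 ratio of CPM in control mouse 159 to the mean of the other 3 Control mice for each tested gene of 7 lists, with the list median as a black line. The Gbp members have a median of 2.0, the immunity-related GTPases 1.59 and the chaperone and prenylation genes -0.12.

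The genes outside the family whose profile over the 8 mice was most like the mean profile of the 10 members were Ly6a, Ccl24, Cxcl9, Trpm2 and Irgm2, by the root mean square difference of centred log2 CPM (0.21, 0.21, 0.27, 0.27 and 0.28). Within the family this difference ran from 0.19 for Gbp6 to 0.91 for Gbp11. Over the 7 mice without mouse 159 the closest were Hsd3b3, Mars2, Ly6a, Sema3d and Ddx60 (0.12 to 0.17), so Ly6a was the gene on both lists. In mouse 159 Ly6a was at 20.7 CPM, against at most 9.09 CPM in the others. Its difference from the mean profile was 0.21 over the 8 mice and 0.14 without that mouse. The mean profile itself had a root mean square of 0.87 over the 8 mice and 0.43 over the 7. A smaller difference without mouse 159 is therefore not a closer match.

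Some markers of other liver cells were also highest in mouse 159, and their part in the result was not tested. Over all tested genes 18.1% were highest in that mouse, a share that leaves out genes under the filter on low counts. All 10 Kupffer cell markers were highest in that mouse, and they summed to 892 CPM there, between 367 and 589 CPM in the other Control mice and between 265 and 564 CPM in Mc1r LKO mice. Of 10 markers of NK cells and ILC1, 8 were highest in mouse 159, and their sum was 16.5 CPM there against at most 5.26 CPM in any other mouse. Only Klrk1 of these 10 passed the filter on low counts, and their counts over all 8 mice together ran from 11 in Eomes to 262 in Klrk1. The sums of 4 further lists were highest in mouse 159 by smaller margins. They were those of 12 T cell markers (5.86 CPM against up to 5.42 CPM, with 3 of the 12 highest there) and of 7 dendritic cell markers (20.7 CPM against up to 19.0 CPM, with 3 of the 7 highest there). The others were those of 10 monocyte and macrophage markers (240 CPM against up to 234 CPM, 3 of the 10) and of 7 neutrophil markers (12.6 CPM against up to 10.7 CPM, 3 of the 7). The dendritic cell markers Siglech and Cd209a had 0 counts in mouse 159, and the neutrophil markers Ly6g and Mpo were at no more than 3 counts in every mouse. Those of 6 B cell markers (57.6 CPM), 8 sinusoidal endothelial markers (286 CPM), 7 stellate cell markers (384 CPM) and 5 cholangiocyte markers (92.9 CPM) in mouse 159 were within the range of the other mice. The hepatocyte marker sum of mouse 159, 95739 CPM, also lay within the range of the other mice.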

How the data were processed

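Liver RNA from 4 Control and 4 Mc1r LKO mice was sequenced after stranded mRNA library preparation. The authors trimmed the reads with Trim Galore 0.6.6, aligned them with STAR 2.7.6a and counted read pairs on genes with featureCounts of Subread 2.0.1, by strand, and deposited whole-number counts per gene with no normalization. The file headers name an Ensembl annotation of GRCm38, whereas the methods write GRCh38, and coordinates follow the headers. The 10 members and the gene lists were chosen with earlier results of these data known. Groups came from the sample titles.

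From the deposited counts, genes were filtered by filterByExpr (minimum count 10, minimum total 15), which left 13400 genes, normalized by TMM and fitted by genotype with the quasi-likelihood test of edgeR 4.0.16 in R 4.3.3. Standard errors are the fold change divided by the root of the F statistic. Log2 CPM used a prior count of 2, and CPM of genes outside the filter were scaled by the same TMM-scaled library sizes as the tested genes. RPKM is the TMM-scaled CPM per kilobase of union exon length. In simulated counts 92 of 99 genes changed 4-fold and 64 of 94 genes changed 2-fold were called, with 13 of 12989 unchanged genes. Called here means an adjusted p under 0.05, not the limits on unadjusted p. The coefficient of variation between mice estimated by edgeR was 0.32 to 0.85 in the members, against a median of 0.17 over all tested genes. The share called at the spread of the members was not tested. Total counts of 10773151 to 24763375 set the precision, and 3 counts correspond to 0.121 to 0.278 CPM. This bound of 3 counts covers counting error only, whereas the standard errors of the fold changes also take in the spread between mice. The labels do not say that mice came from separate litters or cages, so p-values measure the spread between these mice. Transcript windows came from the GENCODE M21 transcripts, a release other than the one counted, and promoters from RefSeq. The protein sequences were not used here, and 1 gene of the receptor signalling list is not reported here.

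Named genes were all members, the other family gene, the nearest tested genes around each cluster, the receptor signalling list, of each other list up to 4 genes with the highest mean CPM and those within the limits, and the 5 genes most like the mean member profile. The alternatives were DESeq2 1.42.0, limma-voom (limma 3.58.1), other normalizations and filters, robust dispersion, another prior count, CPM in place of RPKM, thinned libraries and leaving out each mouse.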

Additional observations from a re-analysis of the deposited data

Results flagged for a closer look

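Over the 10 members and Gbp2b, both groups of 4 mice were examined for a mouse far from the other 3, which makes 22 groups, and 5 had such a mouse. Chance gives about 1 in 20 groups, and the groups are not independent, since the genes share their mice. The height of mouse 159 and the spread between mice were among the values that chose the 10 members, so this count is a description and is not to be read against that rate. Control mouse 159 was far above the other Control mice in Gbp4 (26.2 CPM), Gbp6 (16.7 CPM), Gbp11 (40.6 CPM) and Gbp2b (33.8 CPM). Mc1r LKO mouse 157 was far above the other Mc1r LKO mice in Gbp3 (9.78 CPM).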

How the results depend on the processing

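The median log2 fold change of the members stayed negative in all 16 alternatives, from -0.45 with control mouse 159 left out to -1.40 with control mouse 181 left out, and no member passed an adjusted p under 0.05 in any of them. In DESeq2 only 2 members had an adjusted p. The number of members lower at an unadjusted p under 0.05, 6 with all mice, was 1 with limma-voom. With all mice it was also 4 with robust dispersion and 4 with at least 10 counts in every mouse. The number was 7 with DESeq2, 7 with library size alone and 9 with no filter beyond 1 count. It was between 2 and 9 when 1 mouse was left out, with 2 if the omitted mouse was control mouse 159, 2 if it was Mc1r LKO mouse 141 and 3 if it was mouse 156 of that group. All 77 single-member values under alternatives with all mice, and all 80 with 1 mouse left out, were negative. The 77 leave out Gbp11 in DESeq2, and Gbp5 and Gbp11 under the filter of at least 10 counts in every mouse. The genotype difference chose the members and the alternatives reuse the same mice, so this shared sign is a description and not support. The number of neighbouring paralogs that differed in level, 2 of 9, was 3 with CPM in place of RPKM and 3 with unshared bases as the length. It was between 0 and 3 when 1 mouse was left out, and with 7 mice the smallest exact p, 0.0156, cannot pass the adjustment when 2 of 9 pairs reach it. With CPM in place of RPKM, 6 of the 9 neighbours changed order, Gbp3 and Gbp7 among them. The median log2 ratio of control mouse 159 was between 1.77 and 2.13 in all 6 alternatives. Scaling by library size alone gave 1 called gene for receptor signalling (0 before), 2 for immunity-related GTPases (1 before) and 1 for chaperones and prenylation (0 before). With no filter beyond 1 count, called genes numbered 1 for receptor signalling, 11 for interferon-gamma induced genes (4 before), 7 for immunity-related GTPases, 2 for GBP partners (1 before) and 2 for chaperones and prenylation. Without control mouse 159 they numbered 1 for interferon-gamma induced genes and 0 for immunity-related GTPases, type I interferon stimulated genes (1 before) and GBP partners. The causes of these changes were not tested. No paired analysis was possible because the groups share no mouse numbers. The lowest counts of a member were 5 in Gbp11 and 8 in Gbp5, both in Mc1r LKO mouse 141.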
